A study of Mus with 9 samples.

Results

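Marrow labelled CCND2wt was set against marrow labelled Vec, the empty-vector control, across all genes of the deposited count table. The comparison rests on 6 of the 9 libraries of the series: replicates 2, 3 and 4 of CCND2wt and replicates 1, 2 and 4 of Vec, chosen by their sample labels. The other 3 libraries (CCND2mut) entered the statistical fit only, where they helped to estimate the spread between libraries. Both groups came from fetal liver cells of embryonic day 12.5 taken from mice that carried AML1-ETO, a fusion protein found in acute myeloid leukaemia, as a conditional knock-in joined to an mCherry tag. The cells were infected with the retrovirus MSCV-IRES-EGFP, either empty (Vec) or with the coding sequence of unmutated cyclin D2 (CCND2wt), and cells positive for mCherry and GFP were given to lethally irradiated C57BL/6 mice together with supportive cells. RNA was taken from bone marrow cells. The labels do not say whether donor cells were sorted again before RNA extraction, so that host and supportive cells may be part of the marrow. No label ties a library to an animal, and the p-values therefore measure only the spread between these libraries, which may be technical.

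Cyclin D2 is 1 of the D-type cyclins. These bind the kinases CDK4 and CDK6, and the complexes phosphorylate RB and its relatives, which releases E2F factors and lets the genes of DNA replication and mitosis be transcribed. INK4 inhibitors such as p16INK4A block the kinases. In blood, mitogenic cytokines raise D-type cyclins in dividing progenitors, and AML1-ETO is known to hold myeloid precursors short of full maturation.

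The mouse gene of cyclin D2 served as a check of the labels. On chromosome 6 (127125162 to 127152193, mm10), Ccnd2 (ENSMUSG00000000184) reached 76.2, 79.1 and 86.2 CPM (read counts scaled to effective library size) in Vec 1, 2 and 4. In CCND2wt 2, 3 and 4 it stood at 7.30, 9.29 and 11.1 CPM, a log2 fold change of -3.12 (SE 0.50, edgeR adjusted p = 0.00546). The counts at the mouse gene thus ran opposite to the label. The labels give neither species nor sequence of the cloned cyclin D2, and reads of another sequence need not be counted at this gene. All directions below are therefore between libraries labelled Vec and libraries labelled CCND2wt, not between measured levels of cyclin D2.

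The libraries held 15563499 to 17593634 counts each, and 15660 genes (12701 of them protein-coding) had enough counts to be tested. The 3 libraries labelled CCND2wt were very close to one another. Among protein-coding genes at a mean of 10 CPM or more, the median range over 3 libraries was 0.148 on the log2 scale in CCND2wt and 0.401 in Vec. That range exceeded 1 in 72 of 8973 genes (0.802%) of CCND2wt and in 982 of 8926 (11%) of Vec. The biological coefficient of variation estimated within the group was 9.3% in CCND2wt and 39.6% in Vec. The Vec spread was not set by Vec 1 alone: Vec 2 and Vec 4 had a median difference of 0.237, and pairs of CCND2wt libraries had 0.0811 to 0.0992. Pairs of CCND2wt libraries had a mean chi-square per gene of 6.998 to 17.69 and a median of 1.349 to 2.158. They were kept as 3 samples because the labels list them so. Repeat preparations of 1 sample can also differ by more than counting noise, and whether these are 3 animals cannot be told from the labels.

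**Figure D1:**
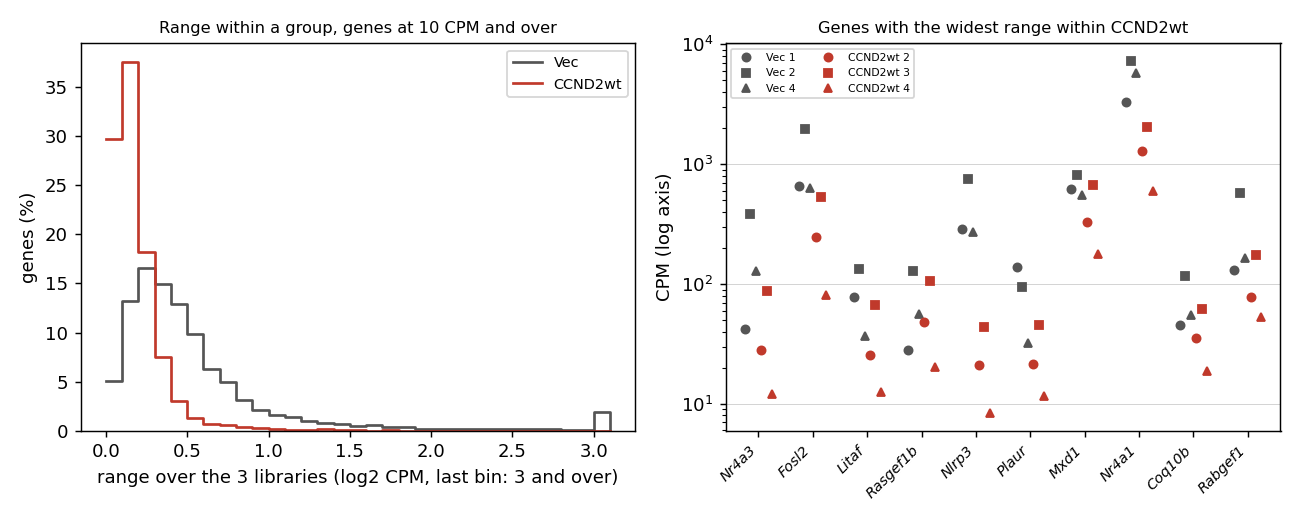
Left: share of genes (%) by the range of their level over the 3 libraries of a group (log2 CPM), for Vec (grey) and CCND2wt (red). Right: level (CPM, log axis) in each library of the 10 genes with the widest range within CCND2wt, where CCND2wt 3 is highest and CCND2wt 4 lowest for every gene shown. The median range is 0.148 in CCND2wt and 0.401 in Vec.

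The 10 widest ranges within CCND2wt belonged to Nr4a3, Fosl2, Litaf, Rasgef1b, Nlrp3, Plaur, Mxd1, Nr4a1, Coq10b and Rabgef1, several of them transcripts that cells make within minutes of a stimulus. All 10 were highest in CCND2wt 3 and lowest in CCND2wt 4. Nr4a1, an orphan nuclear receptor, stood at 1280, 2065 and 602 CPM in CCND2wt 2, 3 and 4. Fosl2, an AP-1 subunit, stood at 246, 533 and 81.7 CPM. Among the 10 widest ranges in Vec were the butyrophilin-like Btnl10, the eosinophil granule genes Epx and Prg2 and the red cell anion exchanger Slc4a1. Slc4a1 stood at 1152 CPM in Vec 1, 5.09 in Vec 2 and 135 in Vec 4.

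In edgeR's quasi-likelihood test over all 15660 genes, 2938 (18.8%) differed between the labels at an adjusted p under 0.05. Of these, 1520 (9.71%) were higher and 1418 (9.05%) lower in CCND2wt, and these shares are the background for every list below. The 3 libraries of one group lay entirely above those of the other for 24.6% of genes (CCND2wt higher) and 23.7% (CCND2wt lower). The median log2 fold change was -0.04 over all genes tested, 1.36 over genes that rose and -1.37 over those that fell. More than 4-fold differences were found for 466 genes that rose and 510 that fell, and 579 and 515 changed by less than 2-fold.

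Without Vec 1, which carried 1.51% haemoglobin and 0.588% immunoglobulin counts, 1655 genes (10.6%) were higher and 1369 (8.74%) lower in CCND2wt. Of the genes that rose with all libraries, 1287 (84.7%) also rose without Vec 1, and of those that fell, 1117 (78.8%) also fell. No gene called with all libraries changed sign. Vec 1 was the highest Vec library for 50.8% of the genes that fell by more than 4-fold, for 35% of all that fell and 49.8% of those that rose, against 35.6% of all genes tested. The count of calls moved further when a CCND2wt library was left out. The count of calls was 1154 without CCND2wt 2, 1285 without CCND2wt 3 and 1112 without CCND2wt 4. With all 3 summed to 1 sample it was 42 (0.268%), and 2142 genes had an unadjusted p under 0.05. All 42 were among the 2938.

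**Figure D2:**
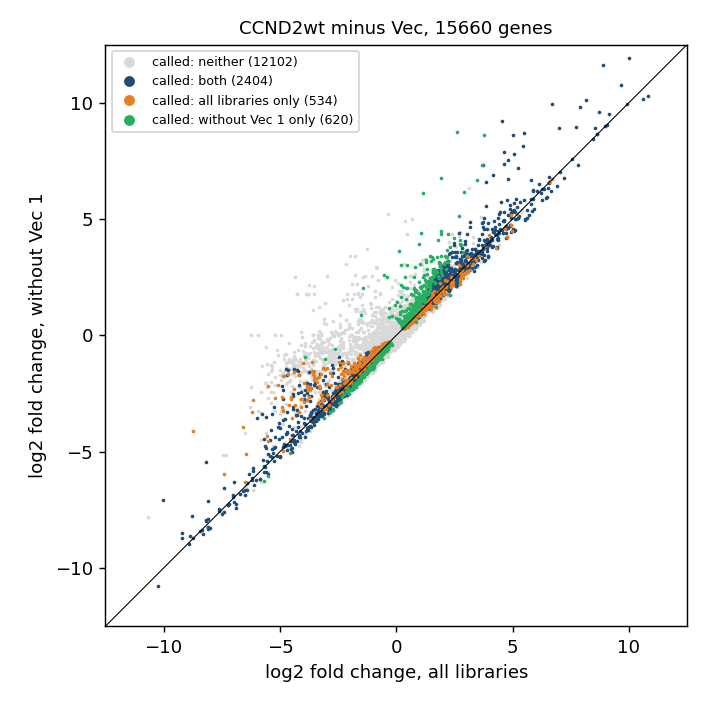
Log2 fold change of CCND2wt against Vec for 15660 genes, with all libraries (x axis) and without Vec 1 (y axis). Colours show in which fit a gene passed an adjusted p of 0.05, the line marks equal values, and 2404 genes passed in both. Of 375 genes more than 2 apart between the fits, 334 lie left of 0 and above the line.

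The cyclin D pathway changed at several steps besides Ccnd2. Ccnd1, another D-type cyclin, stood at 4.95, 6.32 and 5.64 CPM in Vec and 1.8, 1.87 and 1.32 in CCND2wt, and fell by 1.76 (SE 0.28, edgeR adjusted p = 0.00503). Ccnd3, the third member, stood at 207, 132 and 144 CPM in Vec and 102, 109.7 and 120.5 in CCND2wt (log2 fold change -0.54, adjusted p = 0.0658 in edgeR). The kinase Cdk4 stood at 199.7, 209 and 233 CPM in Vec and at 322, 319 and 346 in CCND2wt, so that the groups did not overlap (0.62, SE 0.125, edgeR adjusted p = 0.0123). Its partner kinase Cdk6 overlapped between groups, with 862, 1668 and 1418 CPM against 1048, 1012 and 962 (edgeR adjusted p = 0.356).

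The inhibitors of these kinases showed the larger contrast. Cdkn2a (chromosome 4, 89274471 to 89294653), the source of p16INK4A and ARF, had 3, 1 and 0 counts in the Vec libraries, while those labelled CCND2wt had 339, 349 and 394 (log2 fold change 7.74, SE 0.813, edgeR adjusted p = 0.00117). The counts are per gene, so that its 2 products were not told apart. Cdkn2b, the neighbouring gene of p15INK4B, also passed (edgeR adjusted p = 0.0362, and 0.077 without Vec 1), at 0.801 ± 0.181 CPM in CCND2wt (SD, n = 3) and 0.0428 ± 0.0372 in Vec. Cdkn2c, the gene of p18INK4C, stood at 57.1, 29.0 and 17.3 CPM in Vec and 124, 103 and 123 in CCND2wt (1.76, SE 0.43). The CIP/KIP inhibitors Cdkn1a and Cdkn1b did not pass, with log2 fold changes of -0.61 and -0.05.

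Of 26 tested genes of CDK inhibitors and the p53 pathway, 7 rose and 1 fell (6 and 1 without Vec 1), with a median log2 fold change of 0.12. Phlda3, a p53 target that restrains AKT, stood at 0.905, 0.747 and 0.897 CPM in Vec and 8.25, 9.35 and 9.69 in CCND2wt (3.41, SE 0.338, edgeR adjusted p = 0.000906). Zmat3, an RNA-binding p53 target, rose by 2.85 (SE 0.507), and Perp, a membrane protein of p53-dependent death, by 1.65. The stress sensor Sesn2 fell by 1.61 with all libraries (edgeR adjusted p = 0.039) but stood at an adjusted p of 0.0678 without Vec 1. The 1 that fell without Vec 1 was another gene.

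Of 20 genes of RB, its relatives, E2F and the DREAM complex, 4 rose and 2 fell (median 0.02). The 2 that fell were Ccnd1 and Ccnd2. Rbl1 (p107), an RB relative that binds repressor E2Fs, stood at 53.8, 37.5 and 48.1 CPM in Vec and 141, 123 and 135 in CCND2wt (1.51, SE 0.186). Lin9, a core subunit of DREAM, rose by 1.24 (SE 0.169). Rb1 and Rbl2 did not pass, at log2 fold changes of 0.08 and -0.08.

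Genes that copy DNA were higher in the libraries labelled CCND2wt. Of 17 origin licensing genes 10 rose and 0 fell (13 and 0 without Vec 1), with a median of 1.01. Of 33 replisome genes 26 rose and 0 fell (29 and 0), with a median of 1.04. Mcm10, which loads the polymerase onto the helicase, stood at 23.8, 14.5 and 12.3 CPM in Vec and 71.2, 66.3 and 70.3 in CCND2wt (2.04, SE 0.268, edgeR adjusted p = 0.00251). Gmnn (geminin), which blocks a second round of licensing, rose by 1.39 (SE 0.354), and Cdt1, the licensing factor it binds, by 0.89. Prim1, the catalytic subunit of primase, stood at 37.3, 23.8 and 31.5 CPM in Vec and 113, 118 and 113 in CCND2wt (1.89, SE 0.198). Pole, the leading-strand polymerase, stood at 43.2, 35.6 and 35.8 CPM in Vec and 123, 109.7 and 116 in CCND2wt (1.61, SE 0.125, edgeR adjusted p = 0.000263). It was the 1 member of the 9 replication and division lists that also passed with CCND2wt summed to 1 sample (edgeR adjusted p = 0.0423). The sliding clamp Pcna did not follow: it stood at 405, 444 and 346 CPM in Vec and 355, 375 and 375 in CCND2wt (-0.11, edgeR adjusted p = 0.538).

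Genes of deoxynucleotide supply and of histones rose in part. Of 21 deoxynucleotide genes 8 rose and 0 fell (median 0.54), among them Tyms, thymidylate synthase, at 30.9, 14.1 and 18.9 CPM in Vec and 93.7, 87.3 and 93.4 in CCND2wt (2.10, SE 0.271). Rrm1, the large subunit of ribonucleotide reductase, rose by 1.29 (SE 0.266). The small subunit Rrm2 stood at 124, 10.7 and 20.3 CPM in Vec and 88.9, 79.6 and 94.0 in CCND2wt. Rrm2 did not pass with all libraries (edgeR adjusted p = 0.51) and passed without Vec 1 (2.52, edgeR adjusted p = 0.00148). Of 25 histone genes 8 rose and 0 fell (median 1.25). Summed CPM of the histone list overlapped between groups, at 4267, 3869 and 8026 in Vec and 4469, 4767 and 3476 in CCND2wt. The replacement histone H2afz stood at 498, 460.4 and 437 CPM in Vec and 760.3, 772 and 778 in CCND2wt (0.73, SE 0.1). Whether transcripts without a poly(A) tail, which most replication histones are, were captured evenly was not tested.

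Mitotic genes showed the largest medians of the division lists. Of 29 cyclins and mitotic kinases 15 rose and 0 fell (median 1.63). Of 32 kinetochore and centromere genes 26 rose and 0 fell (1.75), and of 34 spindle and cytokinesis genes 27 rose and 0 fell (1.82). Without Vec 1 these counts were 24, 30 and 33 of the same lists, with medians of 2.22, 2.25 and 2.63. Vec 1 held more of these transcripts than Vec 2 and Vec 4: the spindle list summed to 1685 CPM in Vec 1, 652.3 and 692.4 in Vec 2 and 4, and 3114 to 3221 in CCND2wt.

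The mitotic checkpoint kinase Ttk stood at 11.8, 4.48 and 5.77 CPM in Vec and 46.9, 42 and 44.8 in CCND2wt (2.59, SE 0.359, edgeR adjusted p = 0.0031). Plk4, the kinase that starts centriole duplication, stood at 25.5, 17.7 and 18.7 CPM against 65.0, 64.3 and 68.7 (1.68, SE 0.2). For both genes every CCND2wt library was above every Vec library. Cenpw, of the inner kinetochore, varied little within either group, with 7.66, 7.33 and 8.01 CPM in Vec and 21.2, 22.1 and 23.6 in CCND2wt (1.54, SE 0.139, edgeR adjusted p = 0.000569). Cep55, which acts in the last cut between daughter cells, stood at 13.5, 9.03 and 7.76 CPM against 43.1, 42.3 and 44.1 (2.09, SE 0.253). The spindle motor Kif11 stood at 92.5, 26.0 and 30.3 CPM in Vec and 216, 214 and 213 in CCND2wt (2.11, SE 0.463), which shows the position of Vec 1 between the other Vec libraries and CCND2wt.

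Some of the best known division genes passed only without Vec 1. The cyclin Ccna2 stood at 86.0, 13.5 and 20.8 CPM in Vec and 123, 114 and 133 in CCND2wt (edgeR adjusted p = 0.095 with all libraries, 0.000656 without Vec 1). Ccnb1, the mitotic cyclin, stood at 50.8, 8.01 and 11 CPM against 88.6, 79.4 and 83.9 (adjusted p = 0.0721 and 0.000496 in edgeR). The division marker Mki67 stood at 524, 214 and 167 CPM against 727, 689 and 725 (edgeR adjusted p = 0.0539 and 0.000496). In all 3 genes the groups did not overlap with Vec 1 included.

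Chromosome structure and repair genes rose with them. Of 18 condensin, cohesin and topoisomerase genes 11 rose and 0 fell (median 1.03; 15 and 0 without Vec 1). The condensin subunit Ncapd2 rose by 1.5 (SE 0.238) and Top2a, which untangles sister chromatids, by 1.77 (SE 0.362). Of 32 genes of homologous recombination and Fanconi repair 21 rose and 0 fell (1.29). Brca2, which acts at broken DNA ends, stood at 28.2, 27.6 and 24.8 CPM in Vec and 72.2, 68.2 and 65.0 in CCND2wt (1.35, SE 0.157, edgeR adjusted p = 0.00158). Xrcc2, a recombination factor, rose by 1.77 (SE 0.191) and the translocase Rad54b by 2.20 (SE 0.272). Of 21 genes of mismatch, base excision and end joining repair only 3 rose, and their median was 0.17: the polymerase Polq (1.46), the uracil glycosylase Ung (1.25) and the glycosylase Neil3 (2.28).

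**Figure D3:**
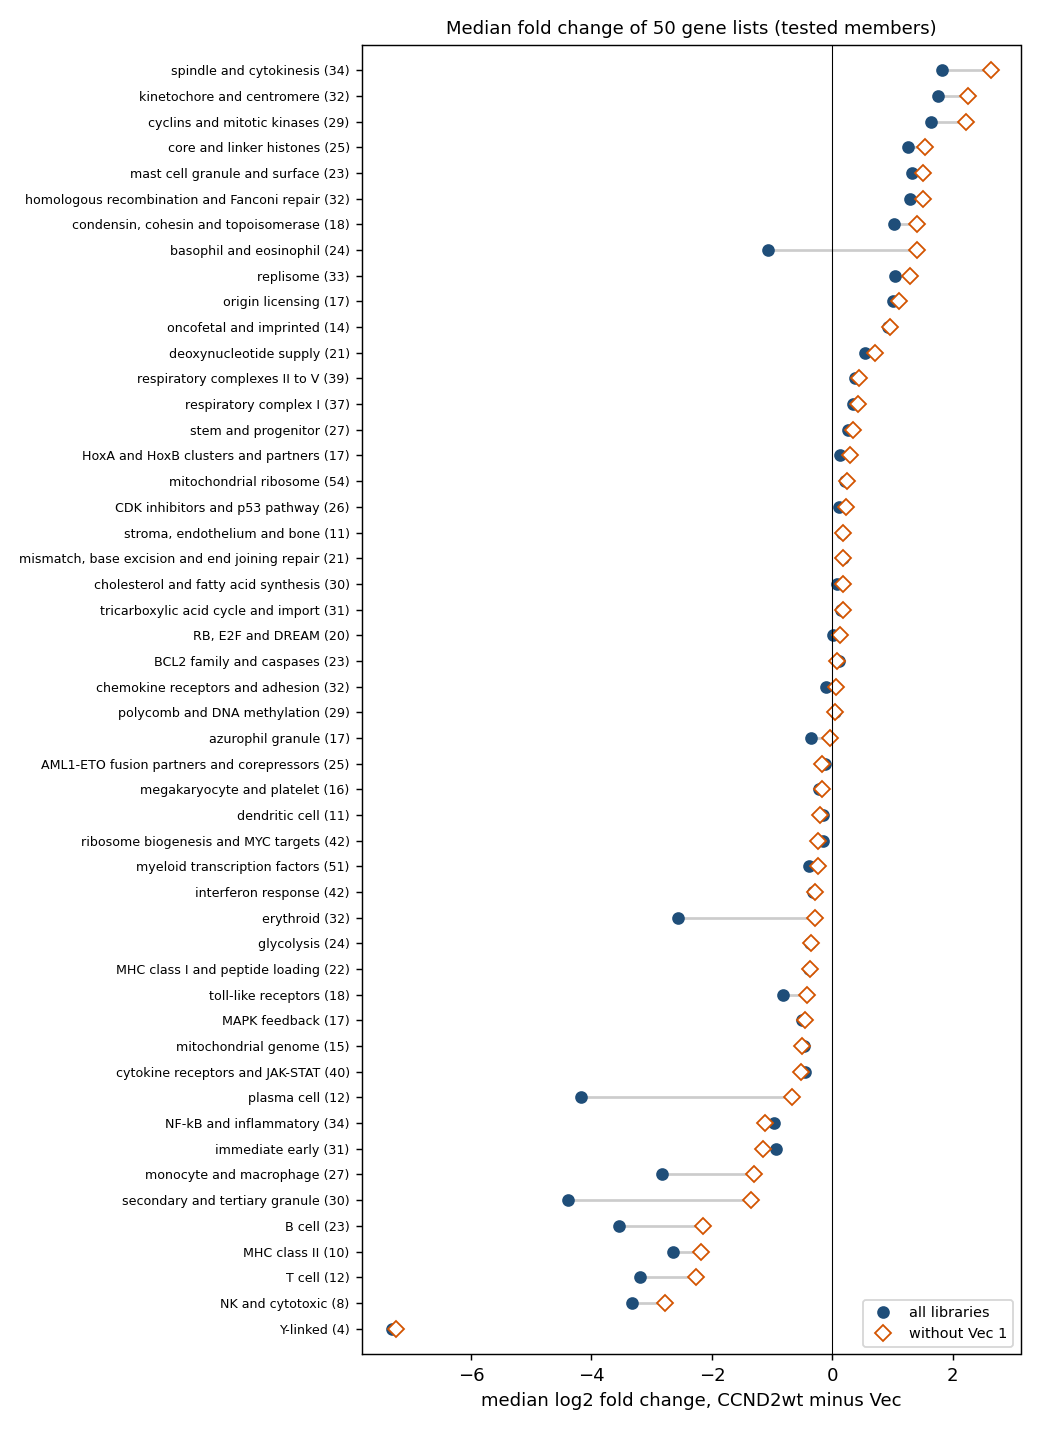
Median log2 fold change (CCND2wt minus Vec) of the tested members of 50 gene lists, with all libraries (filled circles) and without Vec 1 (open diamonds); the number of tested members is in brackets. Division and mast cell lists lie right of 0 under both, and the medians of the plasma cell, secondary and tertiary granule, basophil and eosinophil, and erythroid lists move by more than 2 when Vec 1 is left out.

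Polycomb and DNA methylation genes moved in both directions. Of 29 members 6 rose and 3 fell (median 0.04). Cbx7, a chromodomain subunit of polycomb complex PRC1, stood at 98.7, 110 and 99.6 CPM in Vec and 40.3, 43.1 and 40.6 in CCND2wt (-1.31, SE 0.0986, edgeR adjusted p = 0.000244). Another PRC1 subunit, Bmi1, stood at 81.0, 76.0 and 87.1 CPM in Vec and 169, 163 and 165 in CCND2wt (1.02, SE 0.0985, edgeR adjusted p = 0.000768). Ezh2, the methyltransferase of PRC2 in dividing cells, rose by 0.96 (SE 0.178), and its relative Ezh1 fell by 0.44 (SE 0.0882). The maintenance DNA methylation genes Dnmt1 and Uhrf1 rose by 0.93 and 1.72, and the remodeller Hells by 1.78.

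Mast cell genes were higher in the libraries labelled CCND2wt. Mast cells are granulated myeloid cells that carry the IgE receptor and store proteases and histamine. Of 23 tested mast cell genes 9 rose and 0 fell (7 and 0 without Vec 1), and the median was 1.32 (1.51 without Vec 1). Over the list, CPM summed to 12180, 11860 and 14730 in Vec 1, 2 and 4 and to 22680, 23480 and 22510 in CCND2wt, with no overlap. In bulk RNA, fewer cells of a type and less RNA per cell cannot be told apart, here and for every marker below.

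Levels were also compared per gene length, on the TPM scale (counts divided by gene length and scaled to a fixed total). By group mean over protein-coding genes, a mast cell protease ranked first in both groups. Cpa3, carboxypeptidase A3, was the first-ranked gene in Vec at 13890, 13860 and 19530 TPM and the second-ranked in CCND2wt at 19430, 19440 and 19300 TPM. Not every Vec library had it first: Hbb-bs (26000 TPM), Hba-a1 (20720) and S100a9 (20420) stood above it in Vec 1, and mt-Co1 (14830) in Vec 2. The log2 fold change of Cpa3 was 0.13 (SE 0.621, edgeR adjusted p = 0.904). Cma1 (chymase; chromosome 14, 55941451 to 55944675) was first in CCND2wt at 20140, 19530 and 20180 TPM and ranked 96 in Vec at 1205, 699.7 and 1908 TPM. In the fit it rose by 3.81 (SE 0.946, edgeR adjusted p = 0.0276), and it stood at 3.84 with an adjusted p of 0.0609 without Vec 1. Ctsg, cathepsin G, ranked 9 in CCND2wt and 105 in Vec, with 496, 276 and 422 CPM in Vec and 1404, 1422 and 1487 in CCND2wt (1.85, SE 0.248, edgeR adjusted p = 0.00266).

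Tryptase and serotonin genes went from low levels to clear ones. Tpsg1, a membrane-bound tryptase, stood at 1.39, 1.09 and 3.65 CPM in Vec and 62.1, 65.8 and 55.9 in CCND2wt (4.90, SE 0.712, edgeR adjusted p = 0.00384). Its annotation overlaps that of Cacna1h, so that reads could be shared. Tpsab1 and Tpsb2, related soluble tryptases, rose by 5.88 and 5.82, to means of 5.43 and 649 CPM in CCND2wt. Whether reads were shared between them was not tested. Tph1, which makes serotonin in mast cells, stood at 1.27, 2.72 and 3.65 CPM against 44.6, 43.7 and 44.4 (4.12, SE 0.896). Slc6a4, which takes serotonin up, had 0, 0 and 1 counts in Vec and 749, 851 and 880 in CCND2wt, a ratio of 2130 with a 95% counting interval of 381 to 84000. Such intervals cover counting error only.

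Other mast cell genes did not pass, although their groups did not overlap. The receptor Kit stood at 710, 763 and 913 CPM in Vec and 1121, 1103 and 1098 in CCND2wt (0.48, edgeR adjusted p = 0.231). Hdc, which makes histamine, stood at 163, 116 and 134 CPM against 427, 661 and 418 (1.87, edgeR adjusted p = 0.123). Ms4a2, the beta chain of the IgE receptor, stood at 60.1, 26.1 and 82.1 CPM against 155, 140.2 and 161 (1.44, edgeR adjusted p = 0.0975). In these 3 genes every CCND2wt library lay above every Vec library. The alpha chain Fcer1a passed, at 8.39, 9.37 and 8.40 CPM against 86.5, 124 and 91.1 (3.53, SE 0.764).

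**Figure D4:**
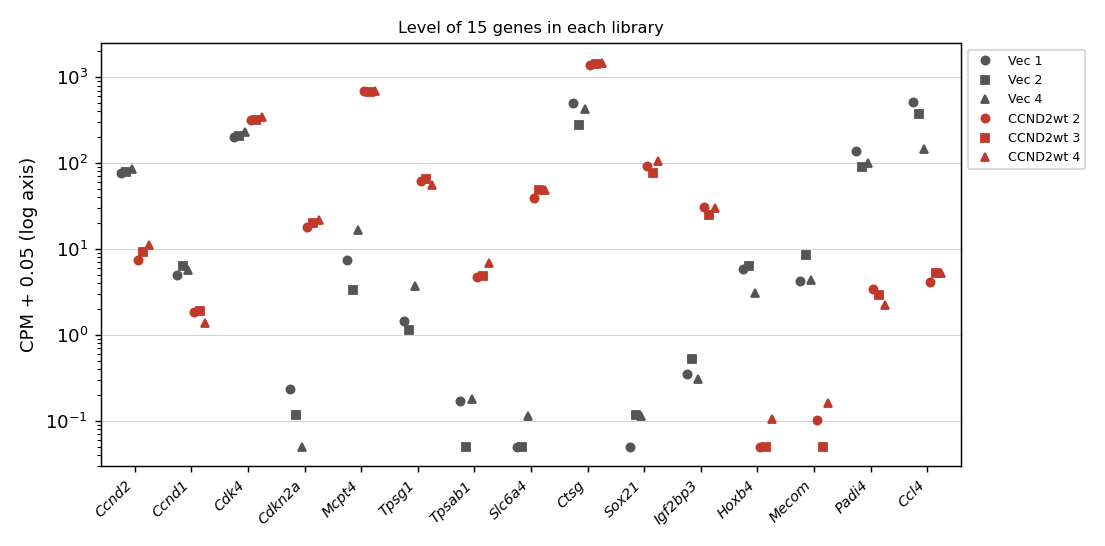
Level of 15 genes in each library, as CPM plus 0.05 on a log axis, with Vec in grey and CCND2wt in red (circle, square and triangle for the 3 libraries of a group). Points on the lowest line are libraries with 0 counts, and for all 15 genes the CCND2wt libraries lie on one side of the Vec libraries.

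Of 24 basophil and eosinophil genes 1 rose and 4 fell (1 and 3 without Vec 1), while the median went from -1.06 with all libraries to 1.40 without Vec 1. Il5ra, the interleukin 5 receptor chain, stood at 3.56, 1.70 and 2.56 CPM in Vec and 14.8, 15.3 and 15.1 in CCND2wt (2.52, SE 0.494). The granule gene Prg2 stood at 172, 0.272 and 7.95 CPM in Vec and 25.0, 11.2 and 20.5 in CCND2wt, and its log2 fold change went from -1.67 to 2.21 without Vec 1. Epx likewise went from -1.66 to 1.81. Neither passed in edgeR (adjusted p = 0.437 and 0.468 with all libraries, 0.134 and 0.398 without Vec 1).

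Markers of maturing neutrophils fell, by less without Vec 1. Of 30 secondary and tertiary granule genes 11 fell and 0 rose with all libraries (median -4.39), and 6 fell without Vec 1 (median -1.35). Their CPM summed to 17950 in Vec 1, 1168 and 1292 in Vec 2 and 4, and 464.1 to 585.9 in CCND2wt. Padi4, which converts arginine in histones to citrulline, had a log2 fold change of -5.28 with all libraries and -5.04 without Vec 1, with 139.8, 89.2 and 99.2 CPM in Vec and 3.33, 2.89 and 2.20 in CCND2wt (SE 0.293, edgeR adjusted p = 8.46e-05, and 0.0251 with CCND2wt summed). By contrast the calprotectin gene S100a9 stood at 3692, 124 and 144 CPM against 65.5, 35.9 and 49.9 and did not pass (edgeR adjusted p = 0.0562, and 0.206 without Vec 1). The azurophil granule list, of earlier precursors, had 1 of 17 members that rose (Ctsg) and 3 that fell. Mpo, its most abundant member, stood at 1199, 1117 and 914 CPM in Vec and 1272, 1152 and 1006 in CCND2wt (0.09, edgeR adjusted p = 0.885). The hexokinase gene Hk3 was among the 3, at -2.59 (SE 0.255).

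The monocyte and macrophage list had 8 of 27 members that fell and 0 that rose (median -2.84), and without Vec 1 6 fell and 1 rose (median -1.30). Summed CPM was 2608, 623.8 and 728 in Vec and 252.5 to 294.1 in CCND2wt. Ms4a6c, a membrane protein of monocytes, stood at 12.8, 7.95 and 7.57 CPM against 0.265, 0.397 and 0.826 (-4.23, SE 0.471, edgeR adjusted p = 0.00132). Among 11 dendritic cell genes 2 rose and 3 fell. Clec10a, a lectin that binds galactose, stood at 7.30, 14.3 and 11.3 CPM in Vec and 81.6, 84.6 and 87.8 in CCND2wt (2.95, SE 0.659), while the receptor Flt3 fell by 1.64 (SE 0.391). One erythroid gene of 32 passed, Tfrc, which takes up iron-loaded transferrin (-2.05, and -1.17 without Vec 1). The erythroid median was -2.57 with all libraries and -0.30 without Vec 1, and summed CPM in CCND2wt (2372 to 2664) lay between Vec 2 (1469) and Vec 4 (5514). The megakaryocyte and platelet list had 1 of 16 members that fell and 0 that rose (median -0.22).

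**Figure D5:**
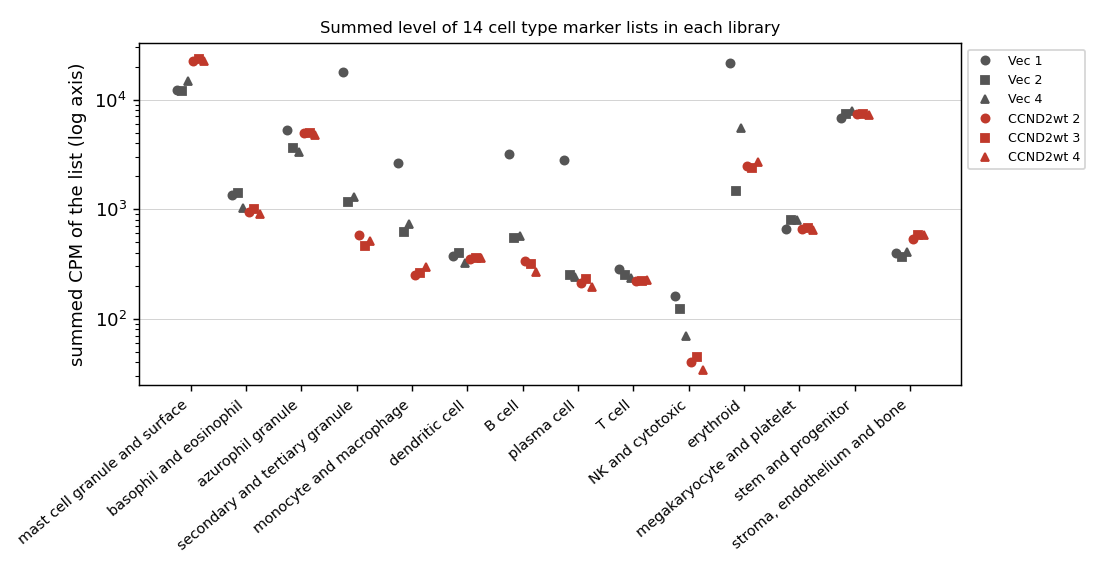
Summed CPM (log axis) of 14 cell type marker lists in each library, with Vec in grey and CCND2wt in red. Vec 1 stands apart from all other libraries in the secondary and tertiary granule, monocyte, B cell, plasma cell and erythroid lists. The mast cell and stroma lists are higher in all CCND2wt libraries than in all Vec libraries. The basophil and eosinophil, secondary and tertiary granule, monocyte, B cell, plasma cell, T cell and NK lists are lower in the same way.

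Most lymphoid markers had log2 fold changes below 0 with and without Vec 1. In the B cell list 13 of 23 fell and 0 rose (9 and 0 without Vec 1), with medians of -3.54 and -2.15. Cd72, a B cell co-receptor, stood at 43.9, 26.6 and 19.1 CPM in Vec and 4.5, 3.40 and 3.63 in CCND2wt (-2.96, SE 0.384). Of 12 T cell genes 7 fell (5 without Vec 1) and of 8 NK and cytotoxic genes 5 fell (4 without Vec 1), and 0 rose in either list. Cd247, the T cell receptor zeta chain, stood at 11.7, 9.91 and 7.88 CPM against 2.12, 2.21 and 1.10 (-2.44, SE 0.441). The T cell surface gene Cd6 had 67, 16 and 16 counts in Vec and 0 in every CCND2wt library, and was thus at least 38.5-fold lower over the group, and at least 19.2-fold lower without Vec 1. Cd3d, Cd3e, Cd3g, Cd8a and Cd8b1 had too few counts to be tested. Not all abundant members fell: Lat of the T cell list and Dntt of the B cell list did not pass. Dntt had 4005, 5155 and 4898 counts in Vec and 5074, 4359 and 3835 in CCND2wt. Summed CPM of the T cell list was 286.6, 249.8 and 235.1 in Vec and 222.5, 222.5 and 224.4 in CCND2wt. The plasma cell list (2 of 12 fell, 1 without Vec 1) moved from a median of -4.17 to -0.67 without Vec 1.

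Antigen presentation genes fell on the class II side. MHC class II had 7 of 10 members that fell and 0 that rose (6 and 0 without Vec 1), with medians of -2.65 and -2.18. H2-Aa, an alpha chain of class II, stood at 83.9, 17.4 and 19.1 CPM in Vec and 1.32, 1.13 and 1.10 in CCND2wt (-5.07, SE 0.668, edgeR adjusted p = 0.00272, and -3.92 without Vec 1). Of 22 class I and peptide loading genes 5 fell and 0 rose. H2-Q6 and H2-Q7, class I genes of the Q region whose similar sequences could share reads, stood at 268, 604 and 362 CPM and 128, 247 and 186 CPM in Vec. In CCND2wt they stood at 15.4, 14.4 and 8.26 CPM and 25.9, 17.6 and 13.8 CPM (-5.02 and -3.29). The classical class I gene H2-K1 did not pass, at -0.38 (edgeR adjusted p = 0.156).

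Immediate early genes, transcribed soon after a stimulus, fell where they passed. Of 31 immediate early genes 6 fell and 0 rose (median -0.94), and 10 fell without Vec 1 (median -1.15). Junb, an AP-1 subunit that restrains myeloid growth, stood at 4032, 4417 and 4462 CPM in Vec and 1655, 2063 and 1190 in CCND2wt (-1.40, SE 0.198, edgeR adjusted p = 0.00321). Btg1, which slows division, stood at 1154, 1112 and 1591 CPM against 311, 396 and 284 (-1.96, SE 0.258). Nr4a1 fell by 2.05 (SE 0.46) in spite of its range within CCND2wt. Jun and Fos did not pass, with log2 fold changes of -0.10 and -0.47. In the MAPK feedback list 3 of 17 fell and 1 rose. The ERK phosphatase Dusp5 fell from 687, 724 and 788 CPM to 119.7, 184 and 65.1 (-2.58, SE 0.553). Dusp2 and Spry2 fell by 1.44 and 1.19. Spry2 had 192, 493 and 455 counts in Vec and 190, 196 and 205 in CCND2wt, so that Vec 1 was near CCND2wt. The 1 that rose was Etv4, an ETS factor, at 0.121, 0.543 and 0.128 CPM against 1.64, 2.61 and 2.04 (2.98, edgeR adjusted p = 0.0341, and 0.0846 without Vec 1).

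Of 34 NF-kB and inflammatory genes 8 fell and 0 rose, with the same counts without Vec 1 (medians -0.96 and -1.12). In both fits 7 genes fell. The chemokine Ccl4 stood at 512, 375 and 145 CPM in Vec and 4.07, 5.27 and 5.23 in CCND2wt (-6.14, SE 0.64, edgeR adjusted p = 0.00116). Nlrp3, an inflammasome sensor, stood at 290.1, 757 and 271 CPM against 21.2, 43.5 and 8.37 (-4.17, SE 0.686). The NF-kB inhibitor Tnfaip3 overlapped between groups, at 2922, 3448 and 4688 CPM against 2632, 4311 and 1653 (edgeR adjusted p = 0.635). Of 18 toll-like receptor genes 4 fell, among them Unc93b1, which carries receptors to the endosome (-2.93, SE 0.693). Of 42 interferon response genes 7 fell and 0 rose (median -0.33; 5 without Vec 1), so that most members did not pass. The 2 smallest adjusted p were those of Oas1a, an antiviral sensor of double-stranded RNA, at 10.2, 9.78 and 15.3 CPM against 1.06, 1.08 and 1.38 (-3.32, SE 0.333), and its relative Oas2 (-2.78, SE 0.315).

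Cytokine receptors and their signalling genes fell more often than they rose. Of 40 members 11 fell and 1 rose (median -0.45), with the same counts without Vec 1. Pim2, a survival kinase induced by STAT5, stood at 69.0, 126 and 90.4 CPM in Vec and 11.6, 13.5 and 13.7 in CCND2wt (-2.87, SE 0.314, edgeR adjusted p = 0.00127). Csf2ra, the alpha chain of the GM-CSF receptor, fell by 1.87 (SE 0.324), Il4ra by 1.55 (SE 0.277) and the feedback inhibitor Socs3 by 2.51 (SE 0.722). Among 32 chemokine receptors and adhesion genes 10 fell and 4 rose (7 and 5 without Vec 1). S1pr4, a receptor for a lipid that guides blood cells, fell by 0.94. In the other direction the integrin chain Itgb1 rose by 0.70, and the junction proteins Icam2 and Esam by 0.94 and 2.38.

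Most transcription factors of the myeloid lineage did not pass. Of 51 members 2 rose and 9 fell (2 and 11 without Vec 1; median -0.39). Nfib stood at 0.181, 0.204 and 0 CPM in Vec and 45.2, 53.9 and 51.2 in CCND2wt (8.53, SE 0.605, edgeR adjusted p = 0.00021, and 0.0281 with CCND2wt summed). The repressor Gfi1 rose by 0.78 (SE 0.192). Cebpb, a factor of granulocytes and macrophages, fell by 1.85 (SE 0.376), Spi1 (PU.1) by 1.25 (SE 0.268) and Myc by 1.10 (SE 0.26). Of 25 partners and corepressors of the AML1-ETO fusion 1 rose and 3 fell. Cbfa2t3, a relative of the ETO moiety, stood at 176, 222 and 281 CPM in Vec and 97.7, 91.0 and 79.7 in CCND2wt (-1.34, SE 0.181). Runx1t1, the ETO gene itself, fell by 0.65 (SE 0.149), and Runx1 stood at -0.53 (edgeR adjusted p = 0.0938). Whether reads of the fusion are counted at these genes was not tested.

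Of 27 stem and progenitor genes 2 rose and 1 fell (median 0.27), both below the shares over all genes. The 1 that fell, Mecom, had 70, 124 and 68 counts in Vec and 1, 0 and 2 in CCND2wt, a ratio of 102 (95% counting interval 34.5 to 497). Of 17 tested HoxA, HoxB and partner genes 4 rose and 3 fell (2 and 3 without Vec 1). Hoxb4, which drives stem cell renewal when overexpressed, had 95, 93 and 47 counts in Vec and 0, 0 and 1 in CCND2wt (ratio 274, interval 48.7 to 10900). Hoxa4 rose from 0.489 ± 0.149 to 3.63 ± 0.843 CPM, and Pbx3, a HOX cofactor, stood at 5.49, 5.50 and 3.01 CPM against 32.5, 39.1 and 32.4 (2.89, SE 0.307). Hoxa9 stood at 5.55, 7.27 and 3.46 CPM against 3.97, 3.63 and 4.18 (edgeR adjusted p = 0.508). Meis1, its cofactor, stood at 87.6, 194 and 97.2 CPM against 47.5, 45.9 and 50 and did not pass (-1.40, edgeR adjusted p = 0.176).

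Nuclear genes of the respiratory chain that passed were higher in the libraries labelled CCND2wt. Of 37 nuclear genes of complex I 8 rose and 0 fell (14 without Vec 1; median 0.35). Of 39 genes of complexes II to V 19 rose and 0 fell (median 0.38). Without Vec 1 also 19 rose, and 17 genes rose in both fits. In 35 of the 39 all CCND2wt libraries lay above all Vec libraries. Atp5k, a subunit of ATP synthase, stood at 18.6, 15.9 and 13.5 CPM in Vec and 32.3, 27.6 and 34.9 in CCND2wt (0.98, SE 0.164, edgeR adjusted p = 0.00596). None of the 15 genes of the mitochondrial genome passed in edgeR (median -0.47; 6 at an unadjusted p under 0.05, 4 lower in DESeq2, 2 lower without Vec 1), and mt-Co1 stood at 4981, 7402 and 4726 CPM against 4135, 4294 and 3965. Of 54 genes of the mitochondrial ribosome 2 rose and 0 fell, and of 31 genes of the tricarboxylic acid cycle and mitochondrial import 3 rose and 0 fell (medians 0.20 and 0.14).

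Of 24 glycolysis genes 6 fell and 0 rose (median -0.37; 5 fell and 1 rose without Vec 1). Hk2, an inducible hexokinase, stood at 31.6, 68.7 and 30.1 CPM in Vec and 3.60, 4.47 and 2.92 in CCND2wt (-3.57, SE 0.408, edgeR adjusted p = 0.00164), and the glucose transporter Slc2a3 fell by 1.75 (SE 0.386). Ribosome biogenesis and MYC target genes had 2 of 42 that rose and 4 that fell (10 fell without Vec 1). Odc1, the first enzyme of polyamine synthesis, stood at 656, 1023 and 1348 CPM against 252, 332 and 197 (-1.96, SE 0.333), and the nucleolar Ncl overlapped between groups (-0.15, edgeR adjusted p = 0.534). Of 30 cholesterol and fatty acid genes 3 rose and 4 fell (8 and 3 without Vec 1). The elongase Elovl6 fell by 1.68 (SE 0.178) and Cyp51, of sterol synthesis, rose by 0.75 (SE 0.188).

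Among 23 BCL2 family and caspase genes 3 rose and 3 fell. Bok, a pro-apoptotic BCL2 relative, stood at 1.27, 1.70 and 1.54 CPM against 18.9, 19.4 and 20 (3.69, SE 0.583), and Bcl2 rose by 1.17 (SE 0.234). The survival factor Mcl1 fell by 1.04 (SE 0.26), and the inflammatory caspases Casp1 and Casp4 by 1.64 and 1.61.

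The largest single differences were of genes near 0 in 1 group. There were 19 genes, all protein-coding and all called, at 10 CPM or more in every CCND2wt library and under 1 CPM in every Vec library. In the other direction there were 8, all called, among them the Y-linked Ddx3y, Kdm5d, Uty and Eif2s3y. Among the 19, chosen by that rule after the values were seen, were genes that are better known outside blood. Sox21, a neural transcription factor, stood at 0, 0.0679 and 0.0641 CPM in Vec and 92.7, 76.9 and 105 in CCND2wt. The matrix protein Fbln1 had 1 count in all of Vec and 505, 562 and 549 counts in CCND2wt, and the actin-binding Cald1 stood at 0.241, 0.136 and 0 CPM against 54.8, 54.8 and 58.8 (8.70, SE 0.563). For Dtna, of the dystrophin complex, 2 counts in all of Vec stood against 1299 in CCND2wt, a 557-fold ratio (95% counting interval 154 to 4600).

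Other large rises were in membrane proteins and guidance factors. Anpep (CD13), an aminopeptidase of myeloid cells, stood at 0.302, 0 and 0.128 CPM in Vec and 116, 125 and 135 in CCND2wt (9.65, SE 1.32). Gprc5c, an orphan receptor, rose by 9.13 (SE 0.496) and Ildr2 by 6.66 (SE 0.619). The BMP receptor Bmpr1b, the semaphorins Sema5a and Sema6a, the potassium channel Kcnj3 and Prtg had 1 to 3 counts in Vec and 337 to 452 in CCND2wt, with ratios of 108 to 387. The matrix gene Sparc stood at 2.78, 3.80 and 1.28 CPM against 125, 147 and 159 (5.78, SE 0.786). The other stromal markers did not rise as a group: of 11 tested 2 rose (Fbln1 and Sparc) and 1 fell (Pdgfrb, -1.83), and 14 of 25 had too few counts to be tested, collagens Col1a2 and Col3a1 among them.

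Igf2bp3, an RNA-binding protein of fetal cells (chromosome 6, 49085223 to 49214957), stood at 0.302, 0.475 and 0.256 CPM in Vec and 30.9, 24.8 and 29.9 in CCND2wt (6.35, SE 0.215, edgeR adjusted p = 8.46e-06, and 0.00184 with CCND2wt summed). Hmga2, another fetal gene, stood at 70.8, 169.8 and 138 CPM against 239.5, 212 and 224 and did not pass (0.84, edgeR adjusted p = 0.0714). Of 14 tested oncofetal and imprinted genes 2 rose and 2 fell.

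Few genes were close to 0 in CCND2wt. Of the genes in this paragraph, only Zfp182 was at 10 CPM or more in all Vec and under 1 CPM in all CCND2wt libraries. Ddx3y, Kdm5d, Uty, Eif2s3y and Ccl3, named elsewhere, also met this rule. Zfp182, a zinc finger gene on chromosome X (21028939 to 21062316), had 416, 505 and 459 counts in Vec and 0, 1 and 2 in CCND2wt (ratio 537, 95% counting interval 183 to 2610). Ugt1a7c, a glucuronosyltransferase, stood at 10.4, 10.2 and 9.17 CPM against 0.106, 0.113 and 0.11 (-6.40, SE 0.313, edgeR adjusted p = 6.56e-05). Ehd3, of endosome recycling, went from 417 counts over all of Vec to 1 over CCND2wt, a ratio of 487 (interval 86.9 to 19300). For the potassium channel Kcnk12 the sums were 311 and 2 (ratio 181, interval 49.8 to 1510). The homeobox gene Nkx2-3 had 19, 311 and 82 counts in Vec and 0 in every CCND2wt library, at least 160-fold lower over the group, and at least 57.3-fold lower without Vec 2.

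Of the 42 genes that passed with the CCND2wt libraries summed to 1 sample, 27 were higher and 15 lower, and all 42 also passed without Vec 1. They were chosen by that fit after the values were seen. Fold changes and SE given for them here are those of the main fit, with the CCND2wt libraries kept apart. Coro2a, an actin-binding coronin (chromosome 4, 46536937 to 46602202), stood at 125, 131 and 139 CPM in Vec and 5.61, 7.14 and 4.79 in CCND2wt (-4.49, SE 0.164, adjusted p = 0.00318 with CCND2wt summed in edgeR). Hdac9, a class IIa histone deacetylase, stood at 16.4, 15.9 and 12.4 CPM against 83.2, 112 and 101 (2.73, SE 0.157). Papss2, which makes the sulphate donor for heparin and other glycans, stood at 14.1, 8.15 and 15.7 CPM against 145, 142 and 149 (3.52, SE 0.25). Orai2, of the store-operated calcium channel, fell by 1.93 (SE 0.13), Fgd3 by 2.34 and Ninj1 by 2.54, while Adgrl1 rose by 3.64, Frem2 by 4.25 and Gpx3 by 2.84.

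The labels also differed in sex-linked genes. Of 4 tested Y-linked genes all fell: Kdm5d, a histone demethylase, stood at 54.9, 69.0 and 31.0 CPM in Vec and 0.106, 0.34 and 0.33 in CCND2wt (-7.61, SE 1.62). Xist, the RNA of the inactive X, stood at 169.5, 10.7 and 879 CPM in Vec and 2276, 2111 and 2305 in CCND2wt (2.66, edgeR adjusted p = 0.141). Vec thus held both kinds of transcript in Vec 1 and Vec 4, and the sex of the donor or host is not given in the labels, so that it cannot be told apart from the label. Genes on other chromosomes showed no shift of a whole chromosome: among 10684 genes at 5 CPM or more the median log2 fold change was -0.06 to 0.05 on the autosomes and 0.00 on X.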

How the data were processed

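RNA of mouse bone marrow cells was sequenced. The deposited table holds read counts per gene, made by the authors with CASAVA 1.8, fastp, HISAT2 2.0.5, featureCounts 1.5.0-p3 and DESeq2 1.20.0 on mm10, per the submitters' processing notes. For annotation release and strand setting, no value is given in the sources used here.

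Columns were matched to samples by name. Of 54532 genes, 15660 passed edgeR's filterByExpr. All 9 libraries were fitted with edgeR 4.0.16 (quasi-likelihood, robust, TMM scaling; R 4.3.3), the contrast was CCND2wt minus Vec, and Benjamini-Hochberg adjustment covered all genes tested, with a threshold of 0.05. CPM use effective library sizes. TPM use the deposited gene lengths. Residual degrees of freedom were 6, 5 without Vec 1 and 4 with CCND2wt summed. For genes at 3 counts or fewer in a group, ratios of summed counts have exact 95% counting intervals, and a group at 0 was set to 3 counts. Alternatives used DESeq2 1.42.0, limma 3.58.1 (voom), other filters and scalings, and left-out libraries. The test was also run on data simulated with the same spread in every group. That setting does not check it under the unequal spread seen here.

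The comparison and the gene lists were chosen with earlier results of these data known. Genes were named by this rule: the D-type cyclins and their kinases, Cdkn2a, Runx1, Runx1t1, Xist and Ddx3y, the 15 largest differences in each direction that passed with and without Vec 1, the 10 widest ranges within a group, and, per list (50 lists), the most abundant member and at most 4 that passed, by adjusted p. Other named genes were picked after their values were seen. The replicate numbers were not taken as pairs, since no label says that they mark a shared batch. Deviations from the group means of same-numbered libraries of the 2 groups correlated by -0.0572 and 0.0224. With so little spread within CCND2wt, these correlations cannot show whether the numbers pair. Some genes that the rule selects are not reported here.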

Additional observations from a re-analysis of the deposited data

How the results depend on the processing

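With RLE size factors all 139 named genes that passed still did, and 2954 genes were called. The count was 3259 with limma-voom, 4299 with DESeq2 (2105 higher, 2194 lower), 2385 with no filter, 2568 with the stricter filter and 2922 without haemoglobin, immunoglobulin and mitochondrial genes. It was 1027 (576 higher, 451 lower) against a 1.5-fold change, 42 (27 and 15) with CCND2wt summed, and 136 (111 and 25) with CCND2wt summed and Vec 1 left out. Leaving out 1 library gave 1112 to 3024 calls, 652 to 1655 higher and 460 to 1369 lower. Of the 139 named genes 102 to 135 passed in each such fit, 104 against a 1.5-fold change and 18 with CCND2wt summed. With only the 6 libraries of the comparison 4245 genes passed, and without Vec 1 and CCND2mut 5751, in place of 3024. Why the counts moved was not tested. The promoter motif description that was planned was not run.

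The replicate numbers were not taken as pairs in the main fit. With the replicate block 1636 genes passed (953 higher, 683 lower), and 115 of the 139 named genes. Under the block the log2 fold changes of Cdkn1b (0.085), Cpa3 (-0.11), Jun (0.040), Epx (0.62) and Prg2 (1.16) changed sign.

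These and the other named genes that changed sign had not passed. Epx and Prg2 stood at 1.16 and 1.15 with limma-voom and, with CCND2wt summed and Vec 1 left out, at 1.83 and 2.23, and Cdkn1b there at 0.10. Over fits that left out 1 library, the ranges were -0.12 to 0.10 for Cdkn1b, -2.22 to 1.81 for Epx, -2.23 to 2.21 for Prg2, -0.26 to 0.12 for Jun, -0.23 to 0.072 for Ncl, -0.0925 to 0.57 for Rb1 and -1.05 to 0.50 for Rasgef1b. Counts of 0 to 3 limit genes near 0 to ratios with wide intervals.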

Other observations

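Some of the genes that differed between the labels lie beside each other. The following neighbourhoods (300 kb to either side of a gene, protein-coding genes tested) were picked after the values were seen and are given with no test. Each count includes the gene at the centre, and over all genes tested 9.71% rose and 9.05% fell. Around Cma1 on chromosome 14, 4 of 26 genes rose and 2 fell, near those shares. Mcpt4, a mast cell chymase, stood at 7.48, 3.26 and 16.5 CPM in Vec and 700.2, 674 and 689 in CCND2wt (log2 fold change 6.24, SE 1.04, edgeR adjusted p = 0.00648). Its neighbour Mcpt8, a basophil protease, stood at 216, 88.3 and 219 CPM against 504, 462 and 431 and did not pass (edgeR adjusted p = 0.119). Around the tryptases on chromosome 17, 4 of 15 rose and 0 fell. The calcium channel gene Cacna1h, whose annotation overlaps that of Tpsg1, stood at 5.79, 1.83 and 1.99 CPM against 77.7, 65.9 and 64.9 (4.43, SE 0.578).

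Around Ccl4 on chromosome 11, 3 of 13 fell, Ccl3 and Ccl5 with it. Around Oas1a on chromosome 5, 6 of 9 fell (5 without Vec 1), Ddx54, an RNA helicase, by 0.73 among them. Around H2-Q6 on chromosome 17, 7 of 22 fell and 2 rose: the lymphotoxin gene Ltb stood at 79.7, 60.4 and 94.3 CPM against 11.8, 10.6 and 9.47 (-2.88, SE 0.304), and the class I gene H2-D1 of the same stretch at 1714, 2139 and 2131 CPM against 1726, 1678 and 1610 (-0.26, edgeR adjusted p = 0.348).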
